A study of Homo sapiens with 60 samples.

Results

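The genes described here are 41 genes of DNA replication and of entry into S phase, taken from the 60675 genes of an expected-count table for A549 cells, a human lung carcinoma line. They were chosen by name, for their role, with earlier results of these data known. Every symbol was found in the table and passed the filter on low counts. The 60 libraries came from cells treated for 24 h with an ethanol extract of a medicinal herb or of an herbal formula, or with vehicle. The doses of Polygalae Radix were 15.2, 76 and 380 µg/mL, and those of Aucklandiae Radix 14.8, 74 and 370 µg/mL, with 2 libraries at each. The other extracts were given at 20, 100 and 500 µg/mL. At each of these doses there were 3 libraries for the herbs Menthae Herba and Saposhnikoviae Radix, 3 for the formulas Saengmaek-san and Guibi-tang, 2 for Soyo-san and 1 for Okbyeongpung-san. These doses are called low, medium and high. The 3 vehicle libraries came from cells given DMSO, at 0.1% by the sample labels and 2% by the series description. Every group is the same cell line with no genetic change, and no group carries a further agent by the labels. Per the series description, the high dose of an extract that inhibited the cells by 20% below 500 µg/mL was set at that inhibiting concentration, and libraries with too little RNA were left out. The named wortmannin control was not analysed here.

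The replication genes work in a fixed order. Before S phase, ORC1, ORC6, CDC6 and CDT1 load the MCM helicase, built from MCM2 to MCM7, onto origins. E2F transcription factors and cyclin E drive the passage from G1 into S, and E2F1 and E2F2 activate many of the genes described here. CDC45, the GINS complex and MCM10 then start the helicase, PCNA and its loader RFC hold the polymerases on DNA, and ribonucleotide reductase, thymidylate synthase and thymidine kinase supply the nucleotides. In a dividing cell line these genes are transcribed, many of them most strongly around the entry into S phase.

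The promoters of 4 genes are shown because their genes moved in different ways at the high dose of Polygalae Radix, MCM6 and RRM1 down and GINS1 and ORC6 up. Each is a RefSeq window on GRCh38.p14, from 250 bases before the gene's start to 50 bases after it, read 5′ to 3′ on the gene's strand. Capitals mark letters of 3 motifs on either strand. The E2F motif was searched as TTTCCCGC, TTTCGCGC, TTTGCCGC or TTTGGCGC, the second as CCAAT, which also reads ATTGG, and the third as TTTGAA, which also reads TTCAAA.
MCM6, minus strand, chr2:135876394-135876693: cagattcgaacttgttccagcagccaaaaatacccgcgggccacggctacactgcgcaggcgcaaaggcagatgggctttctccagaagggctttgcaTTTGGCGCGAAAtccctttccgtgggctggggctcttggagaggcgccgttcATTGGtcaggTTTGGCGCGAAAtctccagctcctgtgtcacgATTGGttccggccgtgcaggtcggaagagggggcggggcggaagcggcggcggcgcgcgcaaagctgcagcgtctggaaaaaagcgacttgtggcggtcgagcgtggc
RRM1, plus strand, chr11:4094435-4094734: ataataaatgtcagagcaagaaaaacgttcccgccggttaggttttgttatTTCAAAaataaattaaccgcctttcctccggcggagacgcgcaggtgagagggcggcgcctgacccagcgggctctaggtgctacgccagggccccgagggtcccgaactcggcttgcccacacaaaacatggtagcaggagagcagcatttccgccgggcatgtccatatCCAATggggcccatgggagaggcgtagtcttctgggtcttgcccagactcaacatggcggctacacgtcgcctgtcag
GINS1, plus strand, chr20:25407423-25407722: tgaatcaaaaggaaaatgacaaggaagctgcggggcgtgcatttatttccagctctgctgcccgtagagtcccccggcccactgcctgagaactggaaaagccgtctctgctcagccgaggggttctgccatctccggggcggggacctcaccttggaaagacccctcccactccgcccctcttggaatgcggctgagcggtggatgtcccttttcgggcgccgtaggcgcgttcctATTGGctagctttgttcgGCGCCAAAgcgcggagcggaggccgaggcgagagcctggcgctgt
ORC6, plus strand, chr16:46689409-46689708: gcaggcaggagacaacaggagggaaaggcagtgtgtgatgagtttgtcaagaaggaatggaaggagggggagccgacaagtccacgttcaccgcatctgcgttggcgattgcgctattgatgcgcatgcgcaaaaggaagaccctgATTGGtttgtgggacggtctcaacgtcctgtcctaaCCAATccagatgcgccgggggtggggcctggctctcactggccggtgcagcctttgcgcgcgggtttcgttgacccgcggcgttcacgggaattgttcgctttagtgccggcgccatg
The MCM6 window held the E2F letters at 2 places, each a pair of overlapping matches on opposite strands, starting at -152 and -90 from the gene's start, and CCAAT letters at -100 and -58. GINS1 held 1 E2F match, at position 6 after the RefSeq start, and CCAAT at -13. In the GENCODE positions used for exons, GINS1 starts at 25407727, beyond the end of this window at 25407722. By that start the whole window, with its E2F and CCAAT letters, lies before the gene. ORC6 held CCAAT at -104 and -68 and RRM1 at -28, and neither held the E2F letters. RRM1 held the TTTGAA letters at -199, the only member to do so.

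Of the 41 members, 37 had a RefSeq window, and 4 (MCM4, MCM5, CCNE2 and GINS4) are named only. The E2F letters stood in 20 of these 37 members (54.1%), against 3.31% of all 35116 windows of the same length and 3.99% of the genes that have one. The CCAAT letters stood in 22 of 37 members (59.5%), against 34.6% of all windows and 39.7% of the genes that have one. The TTTGAA letters stood in 1 of 37 members, against 15.2% of all windows and 18.2% of those genes. The E2F letters stood in 12 of the 22 members that fell between the low and the high dose of Polygalae Radix, in 4 of the 6 that rose and in 4 of the 9 that did neither. These groups are small and the difference between them was not tested.

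Total expected counts ran from 17113963 to 33363661 per library. Levels below are CPM, counts scaled to the library total after TMM normalization. Each comparison used edgeR's quasi-likelihood test with Benjamini-Hochberg adjustment over 18396 genes, and a gene is called higher or lower at an adjusted p under 0.05. No label says that replicates came from separate cultures, and the p-values then cover only the spread among libraries, which may be technical. By their names the libraries come in sets, and vehicle has its own. A comparison with vehicle is thus also one of sets, so each high dose was also set against the low dose from its own set. The libraries also fell into 2 classes that no label gives, split by the level of ENSG00000282955, which was at most 3.44 CPM in 38 libraries (class 1) and at least 19.3 CPM in 22 (class 2). Vehicle, Soyo-san and Okbyeongpung-san were all class 2, and Aucklandiae Radix and Menthae Herba all class 1. Polygalae Radix was class 1 except for replicate 2 at the medium and the high dose. Saposhnikoviae Radix was class 1 except for replicate 2 at the high dose. Guibi-tang and Saengmaek-san were class 1 except for replicate 3 at every dose and, in Saengmaek-san, replicate 1 at the high dose. Keratins KRT8 and KRT18 (390 CPM or more in every library) and the absence of CDKN2A, which A549 lacks (at most 0.226 CPM), go with the labelled line. Of the other identity markers, AKR1B10 and NQO1 had medians of 2810 and 1690 CPM. EPCAM, KRT19 and CDH1 were far lower, at medians of 5.05, 29.2 and 30.6 CPM. Of 10 markers of other cell types, CD3E was at 0 everywhere, and PTPRC, DCN, VWF, SFTPC and PECAM1 reached at most 0.222 CPM. CD68, COL1A1, COL3A1 and ACTA2 were detected, at medians of 8.47, 30.3, 5.49 and 7.7 CPM, so COL1A1 was near the level of CDH1.

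In vehicle, levels were set per kilobase of exon, with all annotated exons of a gene merged. That length can exceed the length of the RNA expressed, so the ranks between genes are approximate. PCNA, the sliding clamp, was highest at 178 ± 3.21 CPM per kilobase (SD, n = 3). TK1, thymidine kinase, followed at 79.0 ± 1.42, MCM7 at 74.0 ± 1.12 and RRM2, the regulated subunit of ribonucleotide reductase, at 57.9 ± 1.15. Each of these 4 lay above the next by more than their SDs, which do not cover the choice of length. The lowest were E2F2 at 3.71 ± 0.158, PRIM2 at 3.59 ± 0.199 and CCNE2, cyclin E2, at 1.81 ± 0.0892, of which E2F2 and PRIM2 did not differ beyond their spread. The CCNE2 exons overlap those of INTS8 on the other strand over 37.0% of their length and TYMS those of ENOSF1 over 39.1%. RRM2 and POLA2 share 20.2% and 35.1% of their exons with a gene on the same strand, and PRIM2 has near-identical copies, so reads of these genes may be shared.

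The members' summed level was lowest at the high doses of Polygalae Radix and Aucklandiae Radix. The 41 genes summed to 2500 and 2562 CPM at the high dose of Polygalae Radix, against 3954 and 3955 CPM at its low dose. At the high dose of Aucklandiae Radix they summed to 2870 and 2928 CPM, against 3917 and 4001 CPM at its low dose. The vehicle libraries held 3918 to 3992 CPM. Among the other 6 extracts Guibi-tang had the lowest mean, with 3558 to 3785 CPM at the high dose, against 3759 to 4008 CPM at the low dose, where the groups overlapped. In bulk RNA, fewer cells that express these genes and less of their RNA per cell cannot be told apart.

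**Figure D1:**
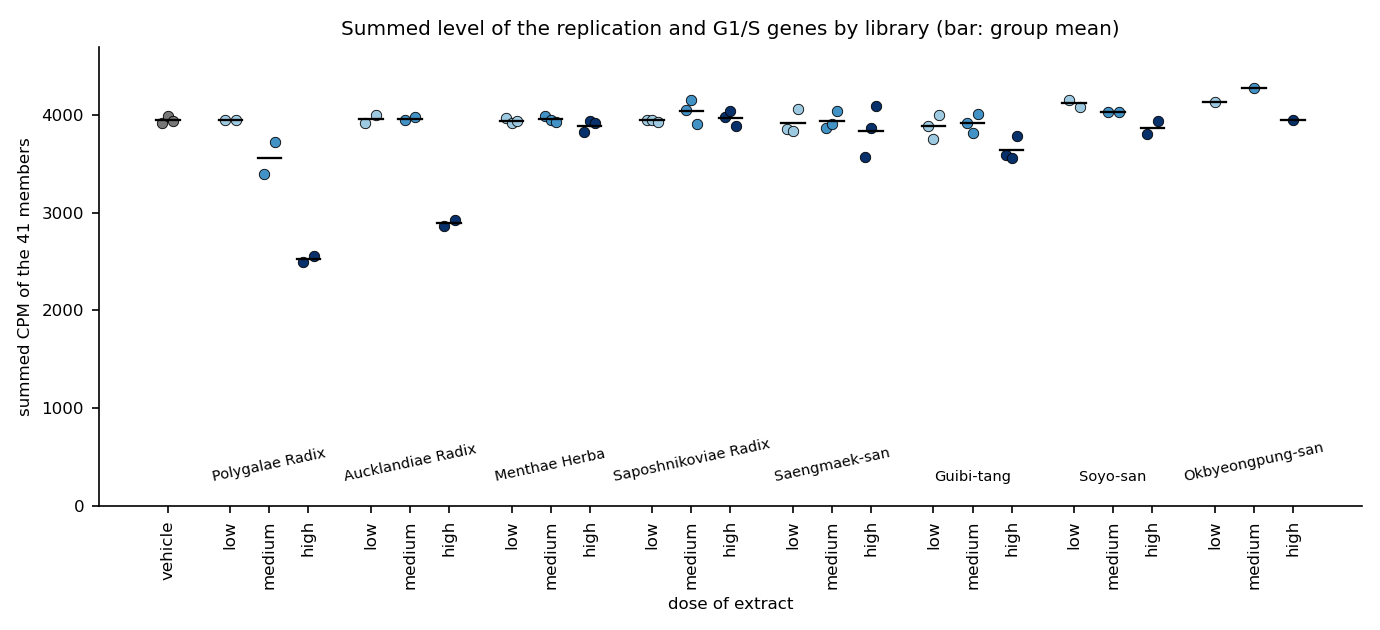
Summed CPM of the 41 members in each library (points) with the group mean (bars), by extract and dose. The high doses of Polygalae Radix (2500 and 2562 CPM) and Aucklandiae Radix (2870 and 2928 CPM) lie below every other library.

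At the high dose of Polygalae Radix the members were called lower more often than all genes tested, and called higher less often. Compared with vehicle, 26 members fell (63.4%, with 29.5% of all genes tested called lower) and 10 rose (24.4%, with 30.1% called higher). The median over the 41 was -0.58 on the log2 scale, beside 0.05 over all genes, and 12 members fell at least 2-fold. Relative to its low dose, inside 1 library set, 25 members fell (61%, with 29.1% of all genes lower) and 7 rose (17.1%, with 27.9% higher). The median there was -0.61, beside 0.04 over all genes. With class as a covariate the counts were 26 lower and 11 higher against vehicle, and 25 lower and 7 higher against the low dose.

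All 6 subunits of the helicase core fell. MCM6 stood at 36.6 and 47.0 CPM at the high dose, against 158 and 163 CPM at the low dose and 151, 159 and 160 CPM in vehicle. MCM5 stood at 42.4 and 39.5 CPM, against 142 and 135 CPM at the low dose and 140, 142 and 140 CPM in vehicle. MCM2 stood at 37.4 and 40.1 CPM, against 116 and 114 CPM at the low dose and 126, 125 and 124 CPM in vehicle. Both high dose libraries lay below every other library of the extract and of vehicle in each of these genes. Relative to vehicle the log2 change was -1.90 ± 0.08 for MCM6 (SE, edgeR adjusted p = 7.47e-24), -1.78 ± 0.08 for MCM5 and -1.69 ± 0.10 for MCM2. MCM3 and MCM4 fell by 1.38 each and MCM7 by 1.24, so the decrease across the core ran from 2.37-fold to 3.74-fold.

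Among the nucleotide supply genes 3 of 4 fell and RRM2 was not called. RRM1, the large subunit of ribonucleotide reductase, had the largest change of all members, with 44.6 and 47.6 CPM at the high dose, against 183 and 189 CPM at the low dose and 195, 205 and 204 CPM in vehicle. That is a change of -2.13 ± 0.06 against vehicle (edgeR adjusted p = 1.71e-28), or 4.37-fold lower. RRM2, the other subunit of the same enzyme, had 303 and 339 CPM at the high dose, against 309 and 326 CPM at the low dose and 307, 315 and 303 CPM in vehicle, and the high dose libraries lay within the range of the others or just above it. Its change against vehicle was 0.06 ± 0.05 (edgeR adjusted p = 0.355). TK1 had 34.6 and 38.2 CPM at the high dose, against 155 and 152 CPM at the low dose and 146, 150 and 145 CPM in vehicle, 4.03-fold lower than vehicle. TYMS, thymidylate synthase, changed by -0.85 ± 0.10.

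The licensing and G1/S genes went the other way in part. ORC6, a subunit of the origin recognition complex, had 82.2 CPM in both high dose libraries, against 42.3 and 42.6 CPM at the low dose and 40.5, 39.8 and 40.5 CPM in vehicle. It was the only member to rise at least 2-fold against vehicle, at 1.03 ± 0.07 (edgeR adjusted p = 1.26e-15). ORC1, another subunit of that complex, changed by -0.58 ± 0.08 and CDC6, which recruits the helicase to origins, by -0.30 ± 0.05. CCNE2 had 12.9 and 13.4 CPM at the high dose, against 8.33 and 8.16 CPM at the low dose and 7.55, 8.33 and 8.01 CPM in vehicle, a change of 0.73 ± 0.12 against vehicle. E2F2 had 28.9 and 28.6 CPM, against 19.8 and 21.1 CPM at the low dose and 19.3, 21.0 and 20.4 CPM in vehicle, a change of 0.51 ± 0.10. In both genes the high dose libraries lay above every other library of the extract and of vehicle. CCNE1, cyclin E1, rose by 0.21 ± 0.07 and E2F1 by 0.25 ± 0.09 against vehicle, so all 4 members of G1/S control were called higher than vehicle. The CCNE1 call was lost without vehicle replicate 3 and without high dose replicate 2, and the E2F1 call without high dose replicate 3. Relative to the low dose, CCNE1, CCNE2 and E2F2 were called higher and E2F1 was not called. E2F1 had 58.6 and 61.6 CPM at the high dose, against 58.0 and 53.8 CPM at the low dose.

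The genes that start the helicase divided by subunit. GINS1 had 105 and 95.6 CPM at the high dose, against 74.4 and 71.4 CPM at the low dose and 72.6, 74.4 and 75.4 CPM in vehicle, and rose by 0.43 ± 0.08 against vehicle. GINS2 and GINS4, which sit with it in the same complex, changed by -0.73 ± 0.09 and -0.67 ± 0.09. GINS3 changed by 0.25 ± 0.08 against vehicle, a call lost without high dose replicate 2, and was not called against the low dose. CDC45, which binds GINS and the MCM core to make the working helicase, changed by -0.66 ± 0.09, and MCM10 by -0.08 ± 0.05, which did not pass (edgeR adjusted p = 0.193).

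The clamp, its loader and the polymerases also moved apart. PCNA had 109 and 144 CPM at the high dose, against 282 and 295 CPM at the low dose and 260, 258 and 267 CPM in vehicle, a change of -1.05 ± 0.11 against vehicle. Among the loader subunits RFC2 and RFC5 changed by -0.89 ± 0.12 and -0.53 ± 0.06, and RFC4 and RFC3 by 0.33 ± 0.07 and 0.23 ± 0.08. RFC4 was already higher than vehicle at the low dose, by 0.25 ± 0.07, and neither RFC3 nor RFC4 passed against the low dose. The RFC3 call against vehicle was lost without high dose replicate 3. POLA1, the catalytic subunit of the priming polymerase, had 19.8 and 20.3 CPM at the high dose, against 52.4 and 56.8 CPM at the low dose and 59.6, 59.4 and 60.6 CPM in vehicle, and changed by -1.58 ± 0.07 against vehicle. POLA2 and POLD1, subunits of the priming and the lagging strand polymerase, changed by -0.58 ± 0.08 and -0.73 ± 0.09. PRIM2 changed by -0.99 ± 0.11 and PRIM1, its partner in primase, by 0.04 ± 0.08. POLE, the leading strand polymerase, had 220 and 178 CPM at the high dose, against 157 and 148 CPM at the low dose and 173, 169 and 167 CPM in vehicle. Its rise of 0.23 ± 0.10 against vehicle was lost without high dose replicate 2 and without any 1 of the 3 vehicle libraries.

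Both genes of Okazaki fragment maturation fell, LIG1 (DNA ligase 1) at -1.10 ± 0.07 and FEN1 (the flap endonuclease) at -0.36 ± 0.10, the second call being lost without high dose replicate 2. UHRF1, which maintains DNA methylation behind the fork, fell by 1.02 ± 0.05. CHAF1B, a subunit of the chromatin assembly factor CAF-1, changed by -0.50 ± 0.06, and CHAF1A, its partner, by -0.03 ± 0.10. CLSPN (claspin) changed by -0.40 ± 0.11 against vehicle, a call lost without high dose replicate 3, and was not called against the low dose. CDT1 changed by 0.21 ± 0.12 against vehicle and was not called (edgeR adjusted p = 0.11). Against the low dose CDT1 was called higher, at 0.49 ± 0.13, with 59.9 and 44.5 CPM at the high dose and 36.8 and 37.2 CPM at the low dose, and that call was lost without high dose replicate 2.

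**Figure D2:**
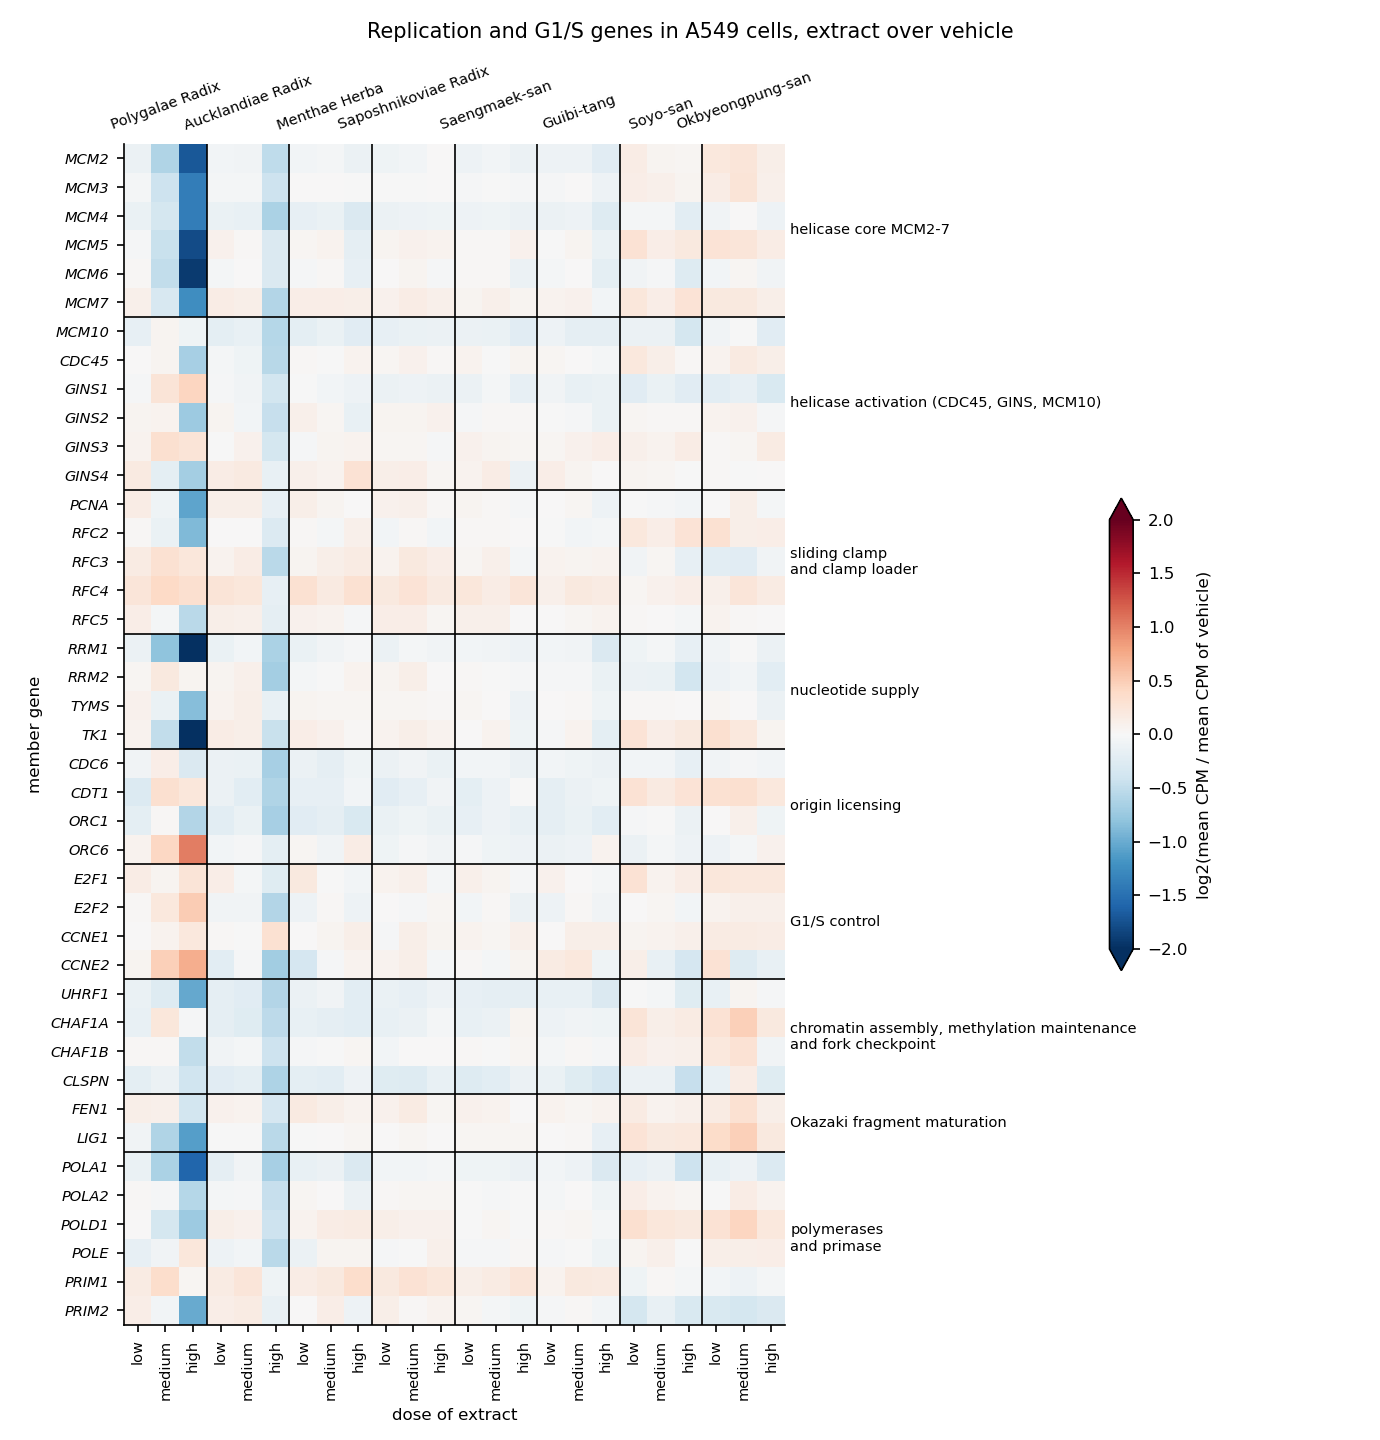
Log2 ratio of each group's mean CPM to the vehicle mean for the 41 members (rows, grouped by role) in the 8 extracts at the low, medium and high dose (columns). Blue is lower and red higher than vehicle, and the colours end at 2. The high dose of Polygalae Radix holds both the deepest blue cells (RRM1, TK1, MCM6 and MCM5) and the deepest red one (ORC6), and the high dose of Aucklandiae Radix is pale blue in 40 of 41 rows.

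In Polygalae Radix the change was already present in part at the medium dose. Compared with the low dose, 12 members fell and 7 rose at the medium dose, with 6.82% of all genes lower and 4.98% higher. The 12 were MCM2 to MCM7, RRM1, TK1, POLA1, POLD1, LIG1 and GINS4, and the 7 were CDT1, CCNE2, CHAF1A, ORC6, GINS1, MCM10 and CDC6. The medium dose libraries were not alike. TK1 had 82.7 CPM in replicate 2, which is of class 2, and 124 CPM in replicate 3, which is of class 1, against 155 and 152 CPM at the low dose. RRM1 had 105 and 125 CPM, against 183 and 189 CPM, a change of -0.69 ± 0.06 (edgeR adjusted p = 3.84e-11). ORC6 had 54.3 and 53.2 CPM, against 42.3 and 42.6 CPM, a change of 0.34 ± 0.08. The count of 19 became 7 without medium dose replicate 2, 12 without low dose replicate 2, 20 with class as a covariate and 0 with only the 4 libraries compared. CDC6 rose at the medium dose, by 0.20 ± 0.06, and fell at the high dose, by 0.22 ± 0.06, both relative to the low dose. MCM10 and CHAF1A were called higher at the medium dose (0.22 ± 0.06 and 0.37 ± 0.11) and were not called at the high dose (0.08 ± 0.06 and 0.11 ± 0.11 against the low dose). The medium dose call of CDC6 was lost without medium dose replicate 2 or low dose replicate 3, that of CHAF1A without medium dose replicate 2 or either low dose library, and that of MCM10 without either low dose library.

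**Figure D3:**
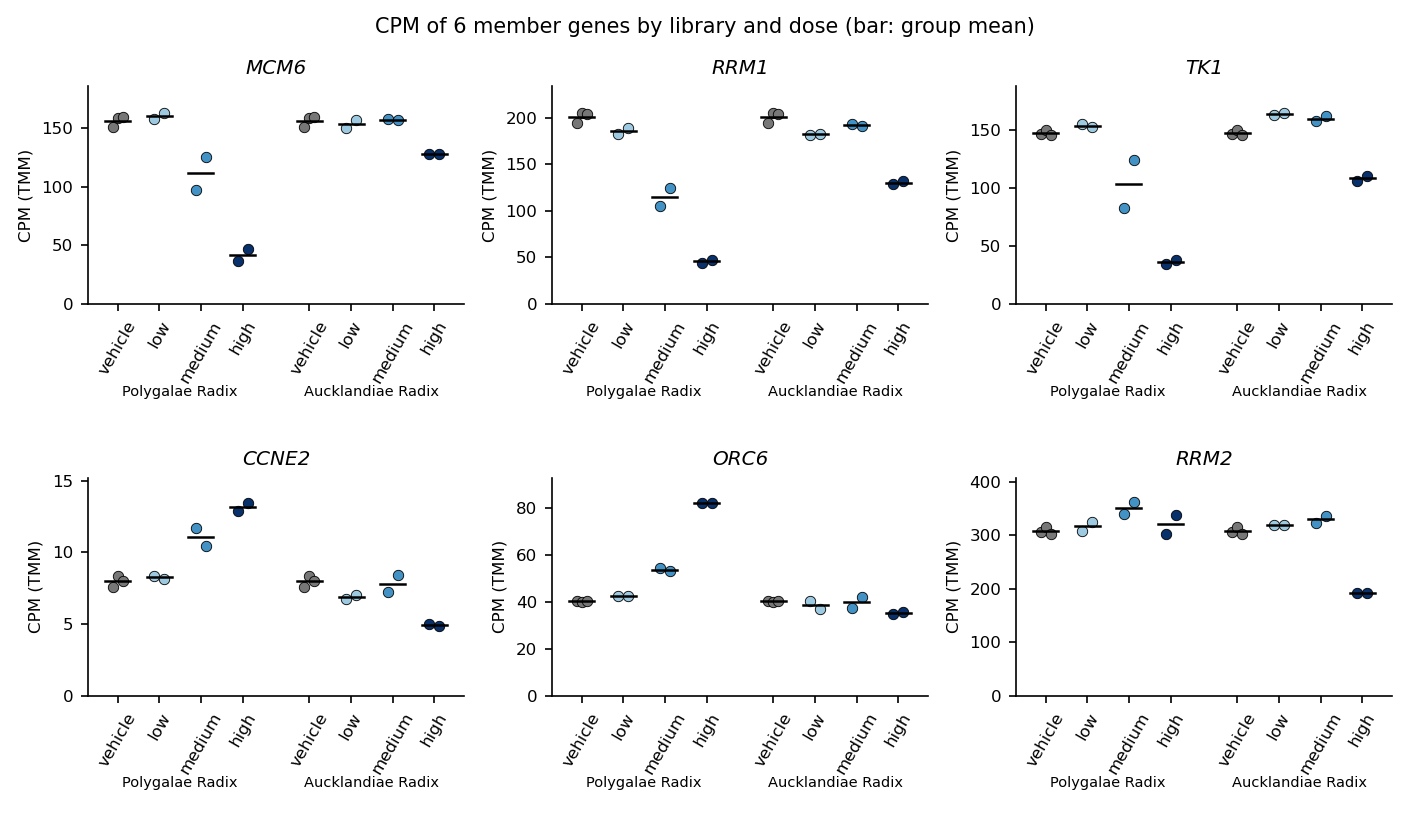
CPM of MCM6, RRM1, TK1, CCNE2, ORC6 and RRM2 in each library (points) with group means (bars), for vehicle and the low, medium and high dose of Polygalae Radix (left in each panel) and of Aucklandiae Radix (right). MCM6, RRM1 and TK1 step down and ORC6 and CCNE2 step up with the dose of Polygalae Radix, and RRM2 is lowest at the high dose of Aucklandiae Radix (193 and 192 CPM).

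Aucklandiae Radix at the high dose lowered the members more evenly. Compared with vehicle, 33 members fell (80.5%, with 17.3% of all genes tested called lower) and 1 rose (2.44%, with 18.5% called higher), at a median of -0.46. Compared with its own low dose, where every library is of class 1, 35 fell and 1 rose, with 9.33% of all genes lower and 9.12% higher, at a median of -0.42 beside 0.01 over all genes. No member changed 2-fold in either comparison. The SD of the log2 change over the 41 members was 0.17 against the low dose, where it was 0.79 for Polygalae Radix. Over all genes tested those SDs were 0.63 and 1.03. Across the 41 members the Aucklandiae Radix change against vehicle had a Spearman correlation of -0.46 with log2 exon length (-0.12 over all genes). Against the low dose it was -0.26 (0.01 over all genes). With the GC content of the transcript the members' correlations were -0.00 and -0.23 in these comparisons. The part of exon length in the changes was not tested. The count against the low dose was 27 to 30 when any 1 of its 4 libraries was left out.

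RRM2 and MCM7 had the largest changes against the low dose, at -0.73 each. RRM2 had 193 and 192 CPM at the high dose, against 320 and 319 CPM at the low dose and 307, 315 and 303 CPM in vehicle, with an SE of 0.06 (edgeR adjusted p = 6.04e-13). MCM7 had 214 and 220 CPM, against 358 and 361 CPM at the low dose and 319, 328 and 327 CPM in vehicle. In both genes the high dose libraries lay below every other library of the extract and of vehicle. RFC3 followed at -0.61 ± 0.08, TK1 at -0.60 ± 0.14, CDC6 at -0.55 ± 0.06 and LIG1 at -0.54 ± 0.08. The other 5 subunits of the helicase core were called lower by 0.26 to 0.51, and MCM6, the one with the deepest decrease under Polygalae Radix, was the least changed here, at -0.26 ± 0.08, a call lost without high dose replicate 2 or 3 or low dose replicate 3.

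CCNE1 was the one member called higher with Aucklandiae Radix. It had 32.0 and 33.8 CPM at the high dose, against 27.9 and 26.5 CPM at the low dose and 26.6, 28.3 and 25.2 CPM in vehicle, a change of 0.28 ± 0.08 against the low dose (edgeR adjusted p = 0.0126). Both high dose libraries lay above every other library of the extract and of vehicle, and the call was lost without high dose replicate 3 or low dose replicate 3. Its paralogue CCNE2 went the other way, with 4.96 and 4.83 CPM at the high dose, against 6.76 and 6.99 CPM at the low dose and 7.55, 8.33 and 8.01 CPM in vehicle. That change was -0.49 ± 0.14 against the low dose, a call lost without either high dose library and without low dose replicate 3. The 5 members not called against the low dose were PCNA (-0.28 ± 0.11), RFC2 (-0.28 ± 0.12), PRIM2 (-0.28 ± 0.11), TYMS (-0.21 ± 0.11) and ORC6 (-0.13 ± 0.08).

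At the medium dose of Aucklandiae Radix none of the 41 members was called against the low dose by edgeR, none had an unadjusted p under 0.05, and DESeq2 called 0. Of all genes tested 0.00544% were called. The summed level was 3949 and 3985 CPM at the medium dose, against 3917 and 4001 CPM at the low dose, so the lower level was seen at 370 and not at 74 µg/mL.

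The 2 extracts share a library set, and the difference between them could be tested directly. At the high dose 14 members were higher and 19 lower with Polygalae Radix than with Aucklandiae Radix, with 28.1% of all genes higher and 29.9% lower. The doses differ slightly (380 and 370 µg/mL), and both were set by inhibition of the cells. The largest differences were -1.61 ± 0.08 for MCM6, -1.56 ± 0.14 for TK1, -1.50 ± 0.06 for RRM1 and -1.49 ± 0.08 for MCM5, and, in the other direction, 1.43 ± 0.14 for CCNE2, 1.22 ± 0.08 for ORC6 and 1.08 ± 0.11 for E2F2. CCNE2 had 12.9 and 13.4 CPM with Polygalae Radix, against 4.96 and 4.83 CPM with Aucklandiae Radix. RRM2 had 303 and 339 CPM with Polygalae Radix, against 193 and 192 CPM with Aucklandiae Radix. Neither pair of groups overlapped. The test of the dose effects themselves, high minus low dose of one extract minus that of the other, called 31 members, 14 higher and 17 lower, with 20.5% and 25.3% of all genes.

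The dose effects of the 2 extracts rest on separate libraries. Of the 25 members that fell with Polygalae Radix, 21 also fell with Aucklandiae Radix, which is 84% of the first list and 60% of the 35 in the second. Of all 41 members 85.4% fell with Aucklandiae Radix, so the 84% is no more than the share of the members as a whole. The 21 hold the whole helicase core, RRM1, TK1, LIG1, FEN1, POLA1, POLA2 and POLD1. CDT1, E2F2, CCNE2, GINS1 and POLE were higher with Polygalae Radix and lower with Aucklandiae Radix, and the difference of dose effects passed for all 5, from 0.80 ± 0.12 for GINS1 to 1.17 ± 0.20 for CCNE2. CCNE1 was higher with both. PCNA, TYMS, RFC2 and PRIM2 were called lower with Polygalae Radix alone, and in each the difference of dose effects passed. A further 9 members, among them RRM2, MCM10, RFC3 and RFC4, were called lower with Aucklandiae Radix alone, and the difference passed for all of these but PRIM1 and CLSPN.

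**Figure D4:**
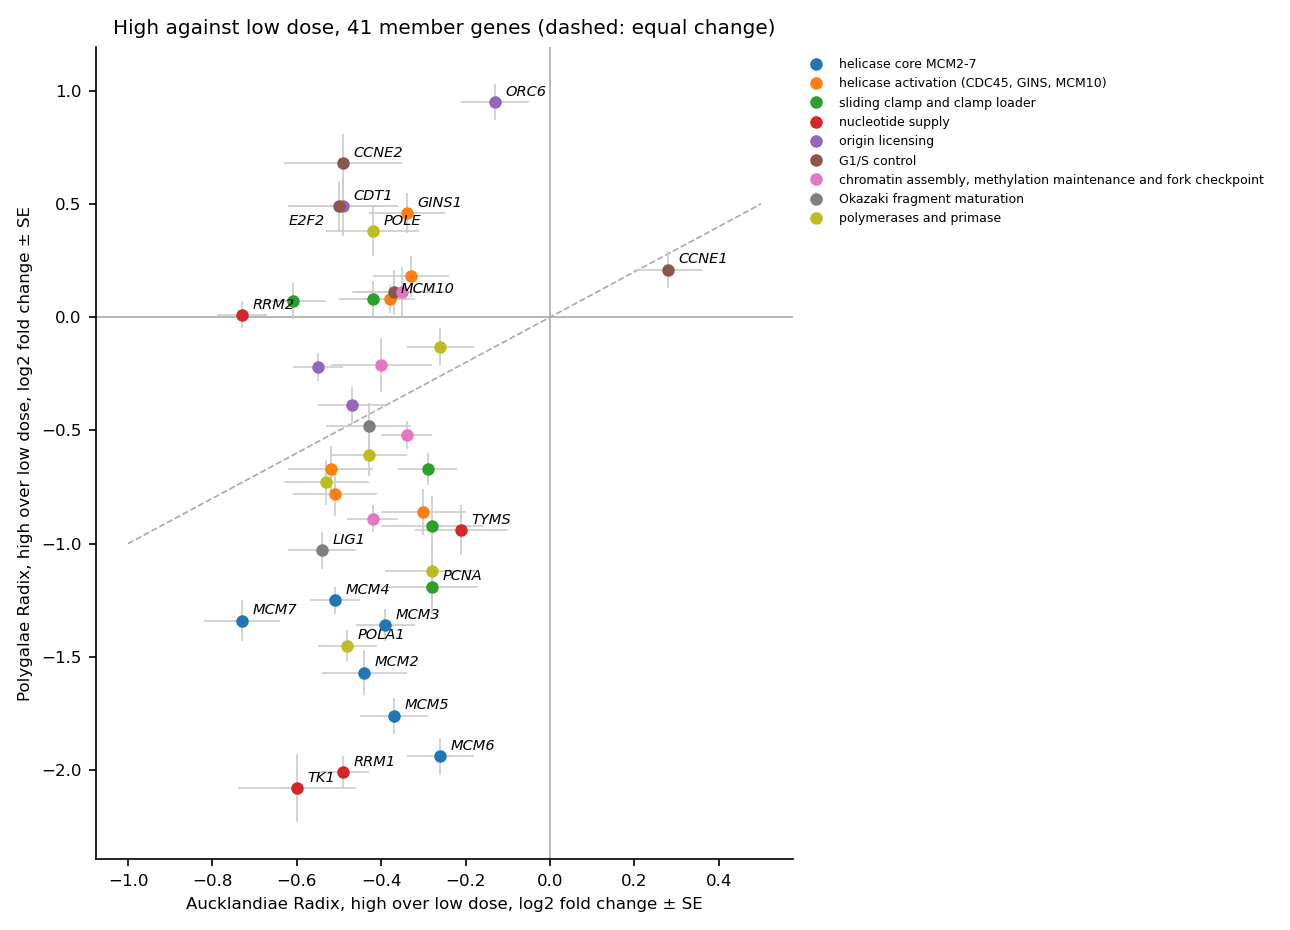
Log2 change of each member between the low and the high dose of Polygalae Radix (vertical axis) and of Aucklandiae Radix (horizontal axis), with SE as bars and colours by role. The points spread from -2.08 to 0.95 vertically and from -0.73 to 0.28 horizontally, with the helicase core and RRM1 below the dashed line of equal change and ORC6, CCNE2, CDT1, E2F2, GINS1 and POLE above it.

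Other genes of the pathway, not among the 41, were counted in 5 lists, high against low dose. The counts stand beside the shares of all genes tested, which were 27.9% higher and 29.1% lower with Polygalae Radix and 9.12% higher and 9.33% lower with Aucklandiae Radix. In the list of E2F factors, pocket proteins and partners, 10 of 15 rose and 1 fell between the low and the high dose of Polygalae Radix (median 0.54), and 0 rose and 5 fell with Aucklandiae Radix (median -0.09). E2F7, a repressor of the family, had 54.5 and 50.8 CPM at the high dose of Polygalae Radix, against 30.1 and 32.7 CPM at its low dose, a change of 0.75 ± 0.11. With Aucklandiae Radix it had 20.6 and 24.2 CPM, against 29.1 and 31.8 CPM, a change of -0.44 ± 0.11. E2F8, its relative, changed by 0.10 ± 0.13 with Polygalae Radix and by -0.92 ± 0.14 with Aucklandiae Radix. MYC, which promotes growth and entry into S phase, rose by 0.66 ± 0.13 with Polygalae Radix and changed by 0.20 ± 0.13 with Aucklandiae Radix, where it was not called. E2F6 and E2F5 were the largest rises of that list with Polygalae Radix, at 0.85 ± 0.15 and 0.80 ± 0.09.

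Of 20 other nucleotide supply genes, 17 fell and 1 rose with Polygalae Radix (median -1.03), and 11 fell and 1 rose with Aucklandiae Radix (median -0.34), high against low dose. Among the largest changes with Polygalae Radix were SAMHD1, which breaks down deoxynucleotides, at -2.40 ± 0.08, and MTHFD1, of folate metabolism, at -2.07 ± 0.05. Of 36 other replication factors, 16 fell and 10 rose with Polygalae Radix (29.1% and 27.9% of all genes) and 21 fell and 1 rose with Aucklandiae Radix (9.33% and 9.12% of all genes). The 10 that rose are near the share over all genes. RPA1 and RPA3, subunits of the single-strand binding protein, changed by -1.49 ± 0.06 and -1.75 ± 0.26 with Polygalae Radix, and ASF1B, a histone chaperone, by -0.91 ± 0.09 with Aucklandiae Radix. Over all genes tested the medians were 0.04 and 0.01.

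Of 14 tested genes among the G1 cyclins, their kinases and inhibitors, 4 rose and 4 fell with Polygalae Radix, close to the shares over all genes (27.9% and 29.1%), and 1 rose and 8 fell with Aucklandiae Radix (9.12% and 9.33%). CDKN1A, the p21 inhibitor of cyclin-dependent kinases, had 50.5 and 48.9 CPM at the high dose of Polygalae Radix, against 87.2 and 89.1 CPM at its low dose, and 160 and 153 CPM at the high dose of Aucklandiae Radix, against 90.3 and 89.2 CPM at its low dose. The groups did not overlap in either extract, and the changes were -0.83 ± 0.07 and 0.80 ± 0.07 (edgeR adjusted p = 1.09e-13 and 3.01e-12). CCNA2, the S and G2 cyclin, changed by -0.13 ± 0.07 with Polygalae Radix, where it was not called, and by -0.84 ± 0.07 with Aucklandiae Radix. CCND1 was called with neither. Of 16 replication stress checkpoint genes, 6 rose and 4 fell with Polygalae Radix, again near the shares over all genes, and 1 rose and 5 fell with Aucklandiae Radix. WEE1, a kinase that holds back entry into mitosis, had 75.7 and 75.3 CPM at the high dose of Polygalae Radix, against 32.2 and 35.8 CPM at its low dose, a change of 1.15 ± 0.07, and CHEK1 was called with neither extract. RRM2B, the ribonucleotide reductase subunit used outside S phase, changed by -0.59 ± 0.16 with Polygalae Radix and 0.18 ± 0.16 with Aucklandiae Radix.

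Other RNA of the line moved at the high dose of Polygalae Radix as well. All 7 tested markers of A549 identity fell between its low and high dose, at a median of -2.26, and the summed level of the 10 markers of other cell types was 17 to 27.1 CPM, against 43.8 to 51.9 CPM at the low dose and 57.4 to 59.8 CPM in vehicle. With Aucklandiae Radix 3 of the 7 fell and none rose, at a median of -0.15, and the markers of other cell types summed to 45 to 45.5 CPM, against 48.9 to 51.7 CPM at the low dose. The part of these in the members' changes was not tested.

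In the other extracts tested, from 0 members (Saposhnikoviae Radix) to 14 members (Soyo-san) were called at the high dose against vehicle, and none changed 2-fold. Against vehicle the high dose of Guibi-tang lowered 8 (5.05% of all genes were lower) and raised 0 (4.51% higher). RRM1 had 163, 163 and 170 CPM with Guibi-tang, against 190, 183 and 207 CPM at its low dose and 195, 205 and 204 CPM in vehicle, and POLA1 had 50.5, 46.7 and 50.1 CPM, against 56.9, 58.3 and 56.7 CPM at the low dose. In both genes the high dose libraries lay below every other library of the extract and of vehicle, and both changed by -0.22 ± 0.05 against the low dose (edgeR adjusted p = 0.00456 and 0.011). They were the 2 members called there, with 1.97% of all genes lower and 0.962% higher. The count against vehicle was 4 or 5 without any 1 of the 3 vehicle libraries or of replicates 1 and 2 at the high dose. The count against the low dose was 1 without high dose replicate 2, low dose replicate 2 or low dose replicate 3, and 0 with only the 6 libraries compared.

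Soyo-san, whose libraries are of the same class as vehicle, had 11 members lower and 3 higher than vehicle at the high dose, with 15.6% of all genes lower and 13% higher. CLSPN changed by -0.45 ± 0.11, POLA1 by -0.42 ± 0.06, RRM2 by -0.37 ± 0.05 and MCM10 by -0.36 ± 0.05, and MCM7, LIG1 and MCM5 were higher by 0.27 ± 0.08, 0.22 ± 0.07 and 0.20 ± 0.07. Across the 41 members the change had a Spearman correlation of 0.73 with the GC content of the transcript, and of 0.43 across 18251 genes, all from the same 5 libraries, where the values for Polygalae Radix were -0.17 and -0.01. Inside the set, against the low dose, MCM10, RRM2 and UHRF1 fell (0.837% of all genes lower, 0.402% higher). RRM2 had 243 and 233 CPM at the high dose, against 286 and 281 CPM at the low dose, a change of -0.25 ± 0.06. These 3 calls became 0 without high dose replicate 1 or low dose replicate 2 and 1 without high dose replicate 2 or low dose replicate 1. The count of 14 against vehicle became 7 without high dose replicate 2 and 21 with only the libraries compared.

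At the high dose of Menthae Herba 7 members were lower than vehicle (17.1%, with 15% of all genes lower). A further 3 were higher (7.32%, with 14.6% of all genes higher). The first share is near that of all genes and the second below it. PRIM1 had 43.3, 46.3 and 44.4 CPM with Menthae Herba, against 35.9, 38.6 and 41.3 CPM at its low dose and 35.5, 36.2 and 33.3 CPM in vehicle, a change of 0.35 ± 0.07 against vehicle. GINS4 had 81.8, 85.2 and 79.6 CPM, against 73.0, 72.6 and 73.2 CPM at the low dose, and 64.1, 70.1 and 68.6 CPM in vehicle. In both genes all 3 high dose libraries lay above those of the low dose and of vehicle. With class as a covariate the change against vehicle was 0.33 for PRIM1 (edgeR adjusted p = 0.000685). For GINS4 it was 0.14 and not called (edgeR adjusted p = 0.147), and GINS4 was not called against the low dose. MCM5 had 122, 129 and 119 CPM at the high dose, against 150, 146 and 139 CPM at the low dose, and changed by -0.23 ± 0.06 against it. Against the low dose CCNE2 and PRIM1 rose and E2F1, GINS2 and MCM5 fell, with 6.07% of all genes higher and 9.45% lower. That count of 5 became 2 without high dose replicate 3 or low dose replicate 1 and 3 without high dose replicate 2 or low dose replicate 3.

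The high dose of Saengmaek-san had 2 members higher than vehicle (RFC4 and PRIM1) and 2 lower (MCM10 and UHRF1), with 1.96% and 1.83% of all genes. The count of 4 became 1 or 2 without any 1 of the 3 vehicle libraries and 2 without high dose replicate 3, and 0 without the filter on low counts or with only the libraries compared. Against its own low dose edgeR called 0 members and 0.0707% of all genes, with 4 members at an unadjusted p under 0.05 and 0 by DESeq2. Saposhnikoviae Radix had 0 of 41 called at the high dose against vehicle, where 1.04% of all genes were called and 5 members had an unadjusted p under 0.05, and 0 by DESeq2. Against its low dose edgeR called 0 members, none had an unadjusted p under 0.05, DESeq2 called 0, and 0.0707% of all genes were called. The members' changes there ran from -0.11 to 0.16.

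Menthae Herba shares a set with Saposhnikoviae Radix, and Guibi-tang with Saengmaek-san. At the high dose Menthae Herba was higher than Saposhnikoviae Radix in GINS4 and ORC6 and lower in MCM4, MCM5, POLA1 and GINS2, with 6.27% of all genes higher and 9.9% lower. POLA1 had 46.9, 50.2 and 50.6 CPM with Menthae Herba, against 55.6, 60.3 and 59.2 CPM with Saposhnikoviae Radix. That count of 6 became 2 without Saposhnikoviae Radix high dose replicate 2 (class 2) and 3 without Menthae Herba high dose replicate 1. Guibi-tang was lower than Saengmaek-san in MCM5 alone (1.57% of all genes lower, 0.636% higher), with 123, 128 and 134 CPM, against 144, 142 and 165 CPM. The MCM5 call was lost without Guibi-tang replicate 1 or 2 or Saengmaek-san replicate 3, and the count was 2 without Guibi-tang replicate 3 or without Saengmaek-san replicate 1 or 2. The dose effects of these pairs differed in CCNE2 for Menthae Herba against Saposhnikoviae Radix (1.9% of all genes higher, 4.53% lower) and in 0 members for Guibi-tang against Saengmaek-san by edgeR (0.451% of all genes, 5 members at an unadjusted p under 0.05, 0 by DESeq2). The CCNE2 difference, 0.52 ± 0.16, was lost without any 1 library of these 4 groups except Saposhnikoviae Radix replicate 3 at either dose.

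At the low dose few members were called against vehicle, and the counts depended on the fit. With only the libraries compared they were 17 for Polygalae Radix, 18 for Aucklandiae Radix, 10 for Menthae Herba, 18 for Saposhnikoviae Radix and 18 for Soyo-san, where the fit over all groups gave 1, 3, 5, 1 and 5. RFC4 was called higher with Polygalae Radix (3.54% of all genes higher, 2.84% lower), Aucklandiae Radix (3.82% and 3.42%) and Menthae Herba (7.32% and 5.73%), by 0.25 to 0.30, all against the same 3 vehicle libraries. MCM10 was called lower with Aucklandiae Radix, Menthae Herba and Saposhnikoviae Radix (2.3% of all genes higher, 1.8% lower), by 0.16 to 0.20. Soyo-san had E2F1, LIG1, MCM5 and POLD1 higher and PRIM2 lower (5.43% and 5.29%). Saengmaek-san and Guibi-tang had 0 called by edgeR, with 6 and 4 members at an unadjusted p under 0.05, 2 and 0 by DESeq2, and 0.522% and 0.261% of all genes. These counts rested on single libraries. Aucklandiae Radix had 0 or 1 call without any 1 of its 5 libraries. Menthae Herba had 3 without vehicle replicate 1, 2 without vehicle replicate 2 and 1 without low dose replicate 3. Soyo-san had 2 without vehicle replicate 1 or low dose replicate 2, 3 without vehicle replicate 3 and 0 without low dose replicate 1. The single calls of Polygalae Radix and Saposhnikoviae Radix were lost without any 1 library. At the medium dose of extracts other than Polygalae Radix no member was called against the low dose by edgeR, with 2 members at an unadjusted p under 0.05 in Menthae Herba and Soyo-san each and none elsewhere, and 0 by DESeq2. Of all genes tested 0.174% were called for Menthae Herba, 0.0109% for Soyo-san and 0% for the other 3.

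Okbyeongpung-san had 1 library per dose and no test. The median log2 ratio of the members to the vehicle mean was 0.06 at the low dose, 0.10 at the medium dose and 0.00 at the high dose. At the low dose 22 members lay above the range of the 3 vehicle libraries and 12 below it, where 40.4% of all genes lay above and 33.8% below. At the medium dose 27 lay above and 9 below, where 40.2% of all genes lay above and 35.0% below. At the high dose 20 lay above and 17 below, where 39.1% of all genes lay above and 33.7% below. LIG1 had a vehicle mean of 83.4 CPM and 107, 116 and 95.3 CPM at the low, medium and high dose. PRIM2 had a vehicle mean of 16.7 CPM and 13.5, 13.1 and 13.6 CPM at those doses. LIG1 stood above the vehicle range and PRIM2 below it at each dose.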

How the data were processed

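RNA of A549 cells was sequenced in 60 libraries. The authors deposited RSEM expected counts per gene. Per the submitters' processing notes, the tools were RSEM 1.3.3, STAR 2.7.3a, Trim Galore 0.6.5 and FastQC 0.11.9, with GRCh38. The annotation release and whether counting used strand are not given in those sources. Expected counts were rounded (9.953% had decimals), genes were filtered with filterByExpr and scaled by TMM, and edgeR 4.0.16's quasi-likelihood test (R 4.3.3, limma 3.58.1) was fitted once to 57 libraries in 22 groups, with Benjamini-Hochberg adjustment within each comparison and SE taken as the log2 change over the root of F. Alternatives used DESeq2 1.42.0's test and size factors, no filter on low counts, the replicate block, class as a covariate, only the libraries compared and each library left out. The script was tested on simulated data. Okbyeongpung-san, with 1 library per dose, entered no test. Members and gene lists were chosen with earlier results of these data known. All members are described by role, within each role those with the largest change and any against the majority are named, and of other lists up to 3 genes per comparison plus 8 fixed ones. Of 60675 gene IDs, 56558 had a symbol. Positions and exon overlaps come from GENCODE 29. Replicate numbers paired the libraries, by every correlation over 0.1, in 2 of 18 comparisons with 3 pairs, the medium against the low dose of Guibi-tang and of Saengmaek-san, with 0 calls with or without the block. The lowest chi-square per gene between libraries of a group was 2.31, so no library was treated as a duplicate. 1 gene of the nucleotide supply list is not reported here by name.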

Additional observations from a re-analysis of the deposited data

Results flagged for a closer look

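The dose effect, high against low dose, differed between Polygalae Radix and Aucklandiae Radix in 31 members by edgeR's quasi-likelihood test of the difference (Benjamini-Hochberg adjustment, 2 libraries in each of the 4 groups). The values below are log2 differences, Polygalae Radix minus Aucklandiae Radix. In the helicase core they were -1.68 for MCM6, -1.39 for MCM5, -1.13 for MCM2, -0.97 for MCM3, -0.74 for MCM4 and -0.61 for MCM7. In nucleotide supply they were -1.53 for RRM1, -1.48 for TK1, -0.73 for TYMS and 0.75 for RRM2. In origin licensing they were 1.09 for ORC6, 0.98 for CDT1 and 0.33 for CDC6, and in G1/S control 1.17 for CCNE2, 0.99 for E2F2 and 0.48 for E2F1. Among the genes that start the helicase they were 0.80 for GINS1, 0.52 for GINS3, 0.46 for MCM10 and -0.56 for GINS4. For the clamp and its loader they were -0.92 for PCNA, -0.64 for RFC2, -0.38 for RFC5, 0.67 for RFC3 and 0.50 for RFC4. For the polymerases they were -0.96 for POLA1, -0.85 for PRIM2 and 0.81 for POLE, and for the other roles -0.49 for LIG1, -0.48 for UHRF1 and 0.46 for CHAF1A.

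The dose effect on CCNE2 also differed between Menthae Herba and Saposhnikoviae Radix, by 0.52 on the log2 scale (edgeR adjusted p = 0.04, 3 libraries in each of the 4 groups). No group had enough libraries for a test of a single library that stands apart.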

How the results depend on the processing

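Of 290 calls of single members none changed direction under any alternative, and the share that lost the threshold depended on the setting (64 without the filter on low counts, 41 with only the libraries compared, 5 with class as a covariate, 1 with DESeq2 size factors, 0 with DESeq2's test or the replicate block). Leaving out 1 library at a time, 248 of 1469 recomputed calls lost it. Under every alternative 28 of the 32 calls of Polygalae Radix, high against low dose, held, and 22 of the 36 of Aucklandiae Radix. The counts that moved by over 1.5 times follow, and the cause was not tested. Without the filter on low counts, calls against vehicle were 6 for Menthae Herba (10 with it), 0 for Saengmaek-san (4), 5 for Guibi-tang (8) and 8 for Soyo-san (14) at the high dose, and 0 for Polygalae Radix (1), 0 for Aucklandiae Radix (3), 1 for Menthae Herba (5), 0 for Saposhnikoviae Radix (1) and 2 for Soyo-san (5) at the low dose. High against low dose they were 1 for Menthae Herba (5), 0 for Guibi-tang (2) and 0 for Soyo-san (3), and between extracts 1 for Menthae Herba minus Saposhnikoviae Radix (6) with 0 for its dose effect (1), and 0 for Guibi-tang minus Saengmaek-san (1). With class as a covariate, low dose calls against vehicle were 4 for Polygalae Radix, 6 for Aucklandiae Radix, 9 for Menthae Herba, 6 for Saposhnikoviae Radix, 2 for Saengmaek-san (0), 1 for Guibi-tang (0) and 13 for Soyo-san. High against low dose they were 9 for Menthae Herba, 4 for Guibi-tang and 5 for Soyo-san, and Guibi-tang minus Saengmaek-san had 2. Menthae Herba at the high dose against vehicle had 15. With DESeq2's test, low dose calls were 3 for Polygalae Radix, 5 for Aucklandiae Radix, 9 for Menthae Herba, 3 for Saposhnikoviae Radix, 2 for Saengmaek-san and 9 for Soyo-san, with 5 for Soyo-san high against low dose and 2 for Guibi-tang minus Saengmaek-san. With only the libraries compared, calls against vehicle were 18 for Menthae Herba, 1 for Saposhnikoviae Radix (0) and 0 for Saengmaek-san at the high dose, and 17 for Polygalae Radix, 18 for Aucklandiae Radix, 10 for Menthae Herba, 18 for Saposhnikoviae Radix and 18 for Soyo-san at the low dose. Calls were then 0 for Guibi-tang and for Soyo-san, high against low dose, 0 for Polygalae Radix, medium against low dose (19), and 0 for Guibi-tang minus Saengmaek-san. The replicate block gave 2 calls for Polygalae Radix at the low dose and 2 for Guibi-tang minus Saengmaek-san, and changed no other count by over 1.5 times. Same-numbered libraries correlated at -0.029 and 0.003 in the first of these comparisons. In the second they correlated at 0.006, 0.279 and 0.309 for replicates 1, 2 and 3, so a pairing in part cannot be set aside there. Leaving out 1 library gave 1 to 4 calls for Saengmaek-san, 4 to 7 for Guibi-tang and 7 to 12 for Soyo-san at the high dose against vehicle. At the low dose it gave 0 to 0 for Polygalae Radix, 0 to 1 for Aucklandiae Radix, 1 to 5 for Menthae Herba, 0 to 0 for Saposhnikoviae Radix and 0 to 4 for Soyo-san. High against low dose it gave 2 to 4 for Menthae Herba, 1 to 2 for Guibi-tang and 0 to 1 for Soyo-san, and medium against low dose 7 to 25 for Polygalae Radix. Between extracts it gave 2 to 6 for Menthae Herba minus Saposhnikoviae Radix, 0 to 1 for its dose effect and 0 to 2 for Guibi-tang minus Saengmaek-san. Depth limits CCNE2, the member with the lowest level, most, and 2 libraries per dose limit Polygalae Radix, Aucklandiae Radix and Soyo-san.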
